A study of Mus musculus with 12 samples.

Results

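The apical dendritic layer of hippocampal field CA2 was compared with that of its neighbour CA1. The comparison used 6 Affymetrix whole-transcript arrays of the 12 in the study, 3 for the CA2 dendritic layer and 3 for the CA1 dendritic layer, chosen by their labels. The other 6 arrays measured the cell body layers of the same fields and were used only to ask whether a regional difference was the same in both layers. All tissue came from 3 male Amigo2-EGFP mice (strain label Amigo2-GFP C57BL/6J), 6-8 weeks old and from separate litters. In these mice a green fluorescent reporter is expressed from the promoter of Amigo2, a gene of CA2 neurons, and both regions of every animal carried it. Tissue was cut out of 8 µm frozen sections by laser capture microdissection, with about 20 caps of 5 sections pooled for a piece. The pieces gave 5 to 30 ng of RNA of integrity number 6.9 to 7.5, of which 5 to 7 ng was amplified. The labels put all CA1 arrays in run 938 and all CA2 arrays in run 907, which means that the effects of region and of run cannot be told apart.

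CA1, CA2 and CA3 are successive fields of pyramidal neurons. CA1 neurons receive Schaffer collateral input from CA3 on their apical dendrites, where long-term potentiation is readily induced, whereas the same inputs onto CA2 neurons are known for resisting it. CA2 neurons are also known for their role in social memory, for strong calcium buffering and for perineuronal nets, which are lattices of proteoglycan around neurons. The dendritic layer holds few pyramidal cell bodies. Its RNA comes from dendrites and also from axons, interneurons, astrocytes, microglia, oligodendrocytes and vessels. In such bulk pieces, fewer cells or processes of a type and less RNA in each cannot be told apart.

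Values are log2 expression after RMA, the array normalization the authors used, so a difference of 1 is a 2-fold difference. Each group value is a mean ± SD (n = 3 arrays), and differences are CA2 minus CA1 with limma's standard error. Adjusted p-values come from limma with the Benjamini-Hochberg adjustment across 30142 genes, and "called" means an adjusted p below 0.05. Gene values of array pairs within a group correlated at 0.99 to 0.995, and the median SD of a gene was 0.129 in CA1 and 0.0929 in CA2. The spiked hybridization controls lay at 13.07 ± 0.04 in CA1 and 12.53 ± 0.139 in CA2, and the spiked poly-A controls at 8.07 ± 0.491 and 9.53 ± 0.137. Their part in the regional differences was not tested. Of a list of 29 transcripts known from oocytes, the mean level stood apart on 2 of the 6 arrays. It was 7.15 on CA2 replicate 2 and 7.04 on CA2 replicate 3, against 5.38 to 5.55 on the other 4. CA2 cell body replicate 1 was high as well, at 7.08 against 5.63 and 5.46 on the other CA2 cell body arrays, and it enters the cell body differences and interactions given here. Values without CA2 replicates 2 and 3 compare 1 CA2 array with the CA1 arrays. They come from a fit of the remaining arrays of all 4 groups, in which the lone array is assumed to vary like the other groups, so a lost call there is no test of stability. Of the genes called and differing at least 2-fold, taken up next, 16 of 86 higher and 12 of 105 lower lost their call in that fit.

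Of the 30142 genes, 4771 (15.8%) were called, 2239 (7.43%) higher and 2532 (8.4%) lower in CA2. Counts of called members of a gene list, given below, are to be read against these shares. Most differences were small: 191 genes (0.634%) were called and differed at least 2-fold, 86 (0.285%) higher and 105 (0.348%) lower. The groups did not overlap in 12365 genes (41%), with CA2 higher in 4172 (13.8%) and lower in 8193 (27.2%). The median difference over all genes was -0.11. It ran from a median of -0.20 among the dimmest 10% of genes to 0.0633 among the brightest 10%. Itpka and Doc2b are therefore also placed among the 500 genes nearest to them in level. The other named genes are not placed in this way here. Higher calls made up 46.9% of calls as deposited, 59% after quantile normalization, 75.5% after centring each array on its median, 58.4% after cyclic loess and 58.1% after subtracting the median of genes of like level. Without CA2 replicate 1, 2 or 3, the genes called higher were 1331, 1121 and 1174 and those called lower 1104, 990 and 1006. Of the 191 genes, 69 of the 86 higher and 90 of the 105 lower were called under every one of 18 alternative settings. The 18 include the fit with CA2 replicate 1 as the only CA2 array, where a lost call is no test of stability. They also include the mean of a gene's features, which changes the values of at most 355 genes. Another setting leaves out genes of low level. A gene removed there was not tested in it and was not counted as having lost its call.

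**Figure D1:**
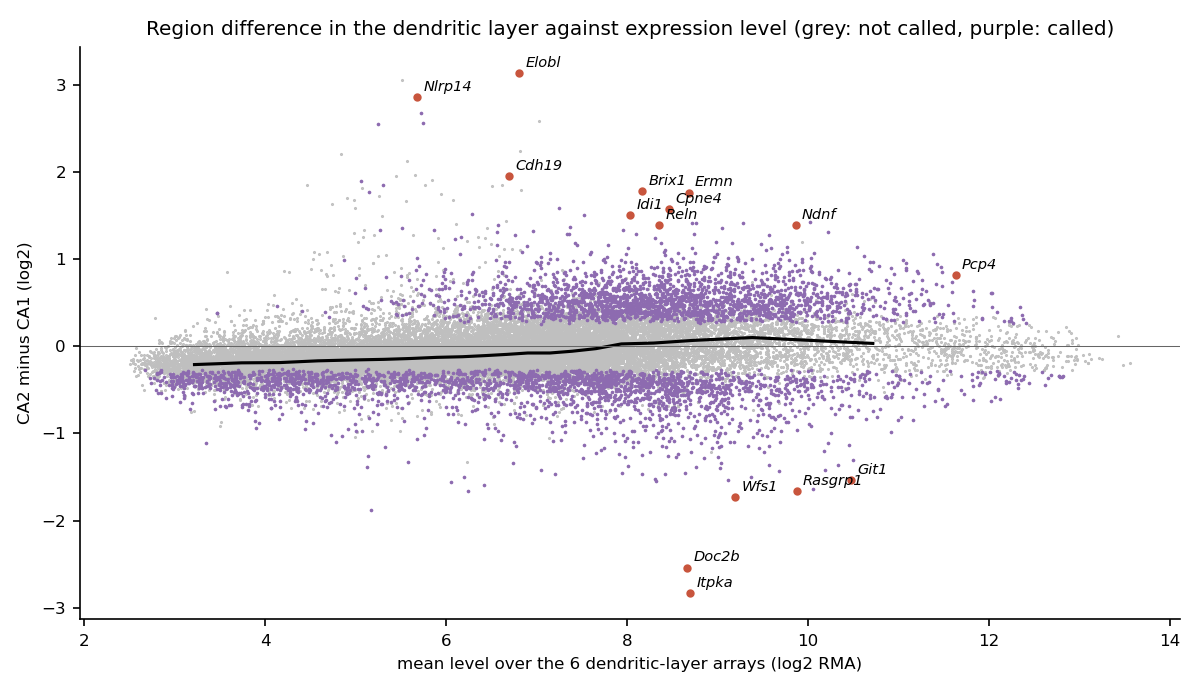
Difference between CA2 and CA1 (vertical, log2) against mean level over the 6 dendritic-layer arrays (horizontal, log2 RMA) for 30142 genes, with called genes in purple, others in grey and the running median of 20 equal bins of genes in black. Itpka and Doc2b lie alone at the bottom, at -2.83 and -2.54, while several of the highest points, at low levels, are oocyte transcripts such as Nlrp14 or moved with them, such as Elobl.

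The largest drop in CA2 was in Itpka, the inositol trisphosphate 3-kinase that bundles actin in dendritic spines of forebrain neurons. It read 10.22, 10.14 and 9.99 on the CA1 arrays and 7.20, 7.31 and 7.34 on the CA2 arrays. No CA2 array came within 2 log2 units of a CA1 array, and the difference was -2.83 ± 0.091 (SE; adjusted p = 2.87e-05). Doc2b, a calcium sensor of vesicle release, followed with 10.21, 9.76 and 9.84 in CA1 against 7.49, 7.28 and 7.42 in CA2, a difference of -2.54 ± 0.128 (adjusted p = 0.000463). In both genes the gap between regions was many times the spread within a region. Of the 500 genes of like level to Itpka, 0% had a lower difference, and of those like Doc2b, 0.2%. Itpka had the lowest difference of all genes, and both genes were picked as the largest falls. Such low shares were therefore built in by the choice.

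The other 13 of the 15 largest falls lay between -1.73 and -1.42. Wfs1, the endoplasmic reticulum protein wolframin and a standard marker of CA1, read 10.32, 9.94 and 9.93 in CA1 and 8.28, 8.49 and 8.23 in CA2 (-1.73 ± 0.128, adjusted p = 0.00077). Rasgrp1, a Ras activator driven by calcium and diacylglycerol, read 10.74, 10.67 and 10.71 in CA1 and 9.11, 9.11 and 8.91 in CA2 (-1.66 ± 0.087, adjusted p = 0.000463). Git1, a scaffold that links Arf and Rac signalling at synapses, read 11.34, 11.21 and 11.18 in CA1 and 9.65, 9.78 and 9.69 in CA2 (-1.54 ± 0.084, adjusted p = 0.000463). The arrays of the regions were far apart in these genes too. Bcr differed by -1.50 and Prkcb, the beta isoform of protein kinase C, by -1.42. The receptors in this group were Sstr4, a somatostatin receptor (-1.54), and Adra2c, the alpha-2C adrenergic receptor (-1.42). Structural and extracellular proteins were represented by Sptb, beta spectrin (-1.52), Klk8, the protease neuropsin (-1.46), Thbs4, a thrombospondin (-1.45), and the junction protein Ajm1 (-1.54). Phyhip (-1.64) and Mpped1 (-1.46) completed the 15. All 15 were called under each of the 18 alternatives.

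The rises were led by 3 genes at low levels that moved with the oocyte transcripts. Elobl, the largest, read 4.72, 5.59 and 5.41 in CA1 and 6.22, 9.59 and 9.32 in CA2, so CA2 replicates 2 and 3 carried the difference of 3.14 ± 0.784 (adjusted p = 0.0327). Fbxw14 (2.67, adjusted p = 0.0349) and Fbxw28 (2.57, adjusted p = 0.0457) had the same pattern, with CA2 replicate 1 at 5.17 and 5.01 and the other CA2 arrays at 7.97 to 8.07. Nlrp14, one of 4 called members of the 29 oocyte transcripts, read 5.28, 8.12 and 7.94 in CA2 against 4.18 to 4.32 in CA1 (2.86, adjusted p = 0.0235). The count of called members was 24 without CA2 replicate 1 and 0 without CA2 replicate 2 or without replicate 3. The calls of Elobl, Fbxw14, Fbxw28 and Nlrp14 were lost without either of those arrays and also without any single CA1 array, with adjusted p up to 0.103, 0.109, 0.138 and 0.0765. With CA2 replicate 1 as the only CA2 array, the difference of Elobl was 0.98 (adjusted p = 0.543). Nexn, which encodes the actin-binding protein nexilin, rose by 1.39 (adjusted p = 0.0212). It too lost its call without CA1 replicate 1 or 2 or CA2 replicate 2 or 3 (differences of 1.08 to 1.47, adjusted p of 0.0515 to 0.066), and its difference against CA2 replicate 1 alone was 0.94 (adjusted p = 0.167).

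The other 11 of the 15 largest rises were called under every alternative. Cdh19, a cadherin of glia, read 6.00, 5.46 and 5.70 in CA1 and 7.61, 7.47 and 7.95 in CA2, a difference of 1.96 ± 0.165 (adjusted p = 0.00111). Brix1, a factor of ribosome assembly, read 7.32, 7.12 and 7.40 in CA1 and 9.05, 8.98 and 9.15 in CA2 (1.78 ± 0.099, adjusted p = 0.000463). Idi1, an enzyme of cholesterol synthesis, rose from 7.28 ± 0.086 to 8.79 ± 0.198, and Syce2, a component of the synaptonemal complex, from 8.01 ± 0.182 to 9.42 ± 0.03. The groups were well apart in each of these. Reln and Ndnf, both on the list of interneuron markers, rose by 1.39 ± 0.154 and 1.39 ± 0.21 (adjusted p = 0.00212 and 0.00559). Ndnf read 9.28, 8.65 and 9.59 in CA1 and 10.62, 10.45 and 10.61 in CA2. Ermn (1.76), a cytoskeletal protein of oligodendrocytes, and Acta2 (1.36), smooth muscle actin, belong to the cell types taken up below. Cpne4, a copine that binds membranes in the presence of calcium, rose by 1.57, Pdgfd, a growth factor ligand, by 1.58, and Vit, the matrix protein vitrin, by 1.37.

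**Figure D2:**
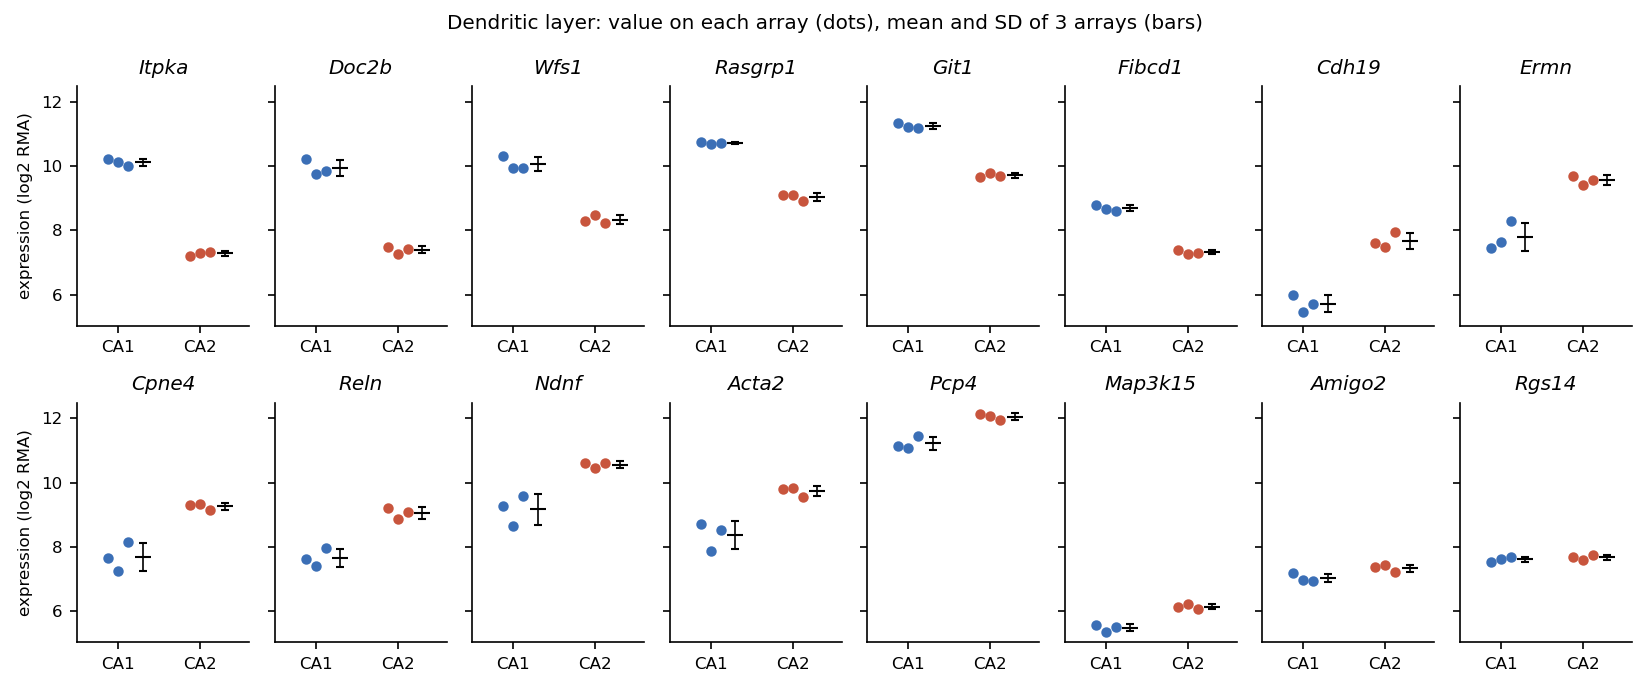
Log2 RMA expression (vertical) of 16 genes on each dendritic-layer array of CA1 (blue) and CA2 (red), with the mean and SD of the 3 arrays of a group beside the dots. The arrays of the regions are clearly apart for Itpka, Doc2b, Wfs1, Rasgrp1, Git1 and Fibcd1, which were lower in CA2, whereas Rgs14 overlaps and Amigo2 lies within 0.5 log2 units between regions.

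Markers of CA2 neurons distinguished the dendritic layers far less than the cell body layers. Of 12 measured markers, 3 were higher and 1 lower in the CA2 dendritic layer, with a median difference of 0.07 against -0.11 for all genes. In the cell body layers the median of the same 12 was 1.86. Amigo2, the adhesion protein whose promoter drives the reporter, read 7.19, 6.97 and 6.95 in CA1 dendrites and 7.36, 7.43 and 7.22 in CA2 dendrites. These did not overlap, but the difference of 0.30 ± 0.1 was not called (adjusted p = 0.0752), against 2.83 between the cell body layers. Rgs14, a signalling regulator known to restrain plasticity in CA2, differed by 0.06 ± 0.085 (adjusted p = 0.637), with overlapping arrays. In this layer, then, 8 of the 12 markers of the labelled region were not called, Amigo2 and Rgs14 among them. The markers were called higher in 25% and lower in 8.33%, against 7.43% and 8.4% of all genes.

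Those that rose were Pcp4, Necab2 and Map3k15. Pcp4, a small protein that modulates calmodulin, lay high in both regions, at 11.14, 11.07 and 11.46 in CA1 and 12.14, 12.06 and 11.93 in CA2 (0.82 ± 0.119, adjusted p = 0.00483). Its difference was 0.92 with CA2 replicate 1 as the only CA2 array, where it was not called (adjusted p = 0.106). Necab2, a neuronal calcium-binding protein, rose from 8.66 ± 0.03 to 9.40 ± 0.129 (0.74, adjusted p = 0.00277), and Map3k15, a kinase, from 5.48 ± 0.106 to 6.14 ± 0.08 (0.66, adjusted p = 0.00398). Nr3c2, the mineralocorticoid receptor, known for its enrichment in CA2 cell bodies, went the other way, from 9.27 ± 0.079 in CA1 dendrites to 8.63 ± 0.047 in CA2 dendrites (-0.64, adjusted p = 0.00318). Among 9 measured markers of CA3, 2 were higher and 0 lower in CA2, one of them Cpne4.

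CA1 markers were lower in CA2 where called. Of all 30142 genes, 20301 had a dendritic difference below 0 and 8.4% were called lower. Of the 9 CA1 markers measured, 5 were lower and 0 higher in CA2, and all 9 differences were below 0. Their median was -0.59 in dendrites and -1.32 in cell bodies. All 5 calls held under every alternative. Beside Wfs1 and Mpped1, Fibcd1, an acetyl-group receptor of the cell surface, fell from 8.69 ± 0.097 to 7.32 ± 0.068 (-1.37, adjusted p = 0.000577). Ndst4, a heparan sulfate-modifying enzyme, fell by 0.87. Pou3f1, a transcription factor, differed by -0.17 (adjusted p = 0.217), and Man1a, a mannosidase, by -0.25 (adjusted p = 0.129). General genes of excitatory forebrain neurons were also lower: 9 of 14 were called lower and 0 higher, with a median of -0.53, and 6 of the 9 calls held under every alternative. Camkv, a kinase-like protein of synapses, fell by 1.14 and Ptk2b, a calcium-activated tyrosine kinase, by 0.91. Neurod6, a transcription factor whose mRNA marks pyramidal cells, read 9.69, 9.90 and 9.59 in CA1 and 8.77, 8.79 and 8.33 in CA2 (-1.10, adjusted p = 0.0034). Its level moved with the neuronal genes, and the part of pyramidal cell bodies in the pieces was not tested. Camk2a, the abundant calcium kinase of spines, differed by -0.17 ± 0.074 (adjusted p = 0.142) at 12.96 and 12.79.

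Whether a regional difference was the same in both layers was tested as an interaction, the dendritic difference minus the cell body difference, fitted on 12 arrays. A run shift of equal size in both layers cancels in it. The poly-A controls did not shift equally: in the cell body layers they lay at 10.89 ± 0.197 in CA1 and 8.66 ± 0.109 in CA2, higher in CA1, whereas in dendrites they were higher in CA2. The part of such a shift in the interactions was not tested. It was called in 4387 genes (14.6%), above 0 in 1700 (5.64%) and below 0 in 2687 (8.91%). The count was 6991 without CA1 dendritic replicate 3, 2621 without CA1 cell body replicate 2 and 2648 without CA2 cell body replicate 2. Without all 3 arrays with oocyte transcripts, which leaves 1 CA2 dendritic array, it was 1303. All 12 CA2 markers had an interaction below 0 that was called. It was -2.53 for Amigo2, -2.97 for Pcp4 and -2.42 for Map3k15, and for Sostdc1, a secreted signalling antagonist, it was -2.84. For Cpne4 the regions differed by 5.01 in cell bodies and 1.57 in dendrites, the largest interaction below 0 among named genes (-3.43, adjusted p = 3.52e-06). Mctp1, a calcium-binding membrane protein, had an interaction of -2.81 and a dendritic difference of 1.18. Among CA1 markers 5 of 9 had a called interaction, all above 0, led by Man1a at 2.71, with -2.96 in cell bodies. Adgrl2, the adhesion receptor latrophilin-2, differed by -3.29 in cell bodies and -0.87 in dendrites. Itpka was the reverse case, with -2.28 in cell bodies and a larger -2.83 in dendrites (interaction -0.55, adjusted p = 0.0176), while for Doc2b the interaction of -0.38 was not called (adjusted p = 0.13). Thbs4 fell in dendrites with a cell body difference of only -0.02 (interaction -1.43, adjusted p = 0.00021). Its cell body levels were 6.59 in CA1 and 6.56 in CA2, against 9.37 and 7.91 in dendrites. At such lower levels a regional difference may not show. Of the genes called at least 2-fold in dendrites, 45 of 86 higher and 58 of 105 lower had a called interaction, against 14.6% of all genes. These genes, Itpka and Thbs4 among them, were picked by the dendritic difference, which is part of the interaction. A larger share was thus partly built in.

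**Figure D3:**
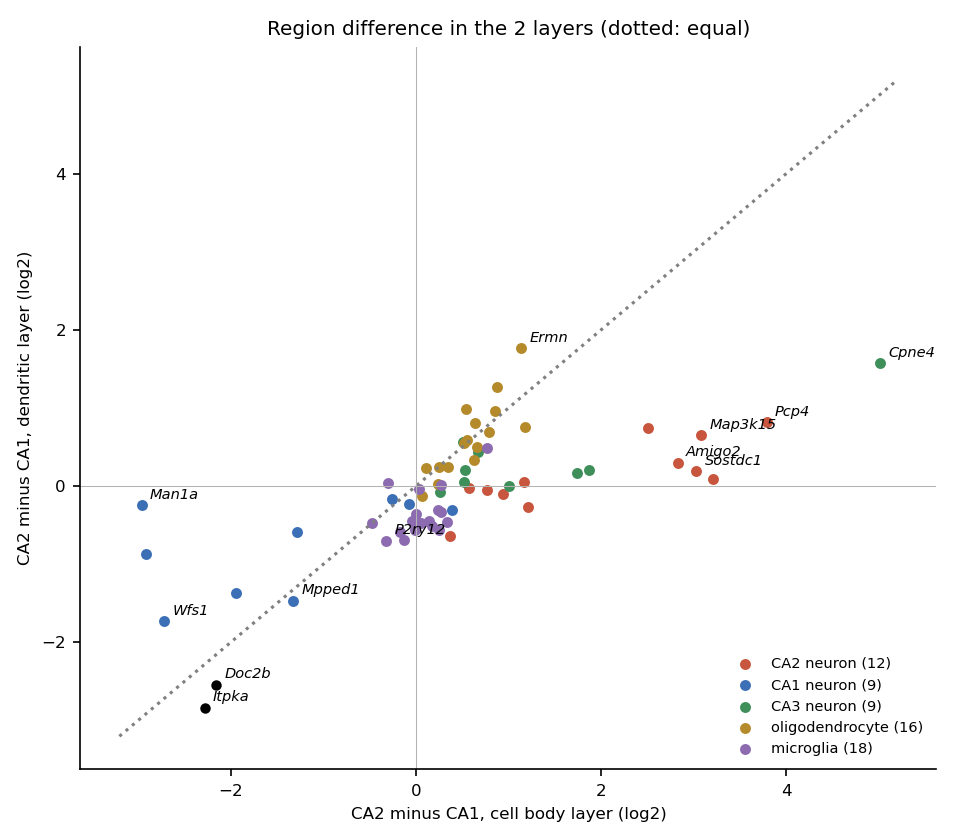
Difference between CA2 and CA1 in the dendritic layer (vertical) against that in the cell body layer (horizontal), both in log2, for markers of CA2, CA1 and CA3 neurons, oligodendrocytes and microglia and for Itpka and Doc2b (black); the dotted line marks equal differences. CA2 markers spread far to the right but stay between -0.64 and 0.82 vertically, oligodendrocyte markers lie near the line, and microglia markers lie between -0.70 and 0.49 vertically, most of them below 0.

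The mRNAs known from dendrites were measured at a mean level of 10.42 in CA1 and 10.11 in CA2. Of 27, 10 were lower and 2 higher (37% and 7.41%, against 8.4% and 7.43% of all genes). The median was -0.27, and 7 of the 12 calls held under every alternative. Arc, an activity-induced regulator of glutamate receptor endocytosis, read 9.60, 9.69 and 9.89 in CA1 and 8.38, 8.29 and 8.33 in CA2 (-1.39 ± 0.095, adjusted p = 0.000676), so the nearest arrays of the groups were more than 1 log2 unit apart. Psd, an Arf exchange factor, read 10.09, 9.74 and 9.89 in CA1 and 8.70, 8.79 and 8.81 in CA2 (-1.14, adjusted p = 0.00138), and Dgkz, which removes the signalling lipid diacylglycerol, fell from 9.52 ± 0.05 to 8.51 ± 0.097. The members that rose were Pcp4 and Cplx1, a complexin of presynaptic release (0.67, adjusted p = 0.0034). Map2, the classical dendritic mRNA, differed by -0.12 ± 0.08 (adjusted p = 0.308). Ddn, the postsynaptic protein dendrin, fell by 0.66 (adjusted p = 0.0177), but its call was lost without CA1 replicate 1, CA2 replicate 1 or CA2 replicate 2, with differences of -0.61, -0.54 and -0.64 and adjusted p of 0.0549, 0.0522 and 0.0638.

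Activity-induced genes, which are transcribed within minutes of strong synaptic input, were lower in CA2 as far as they were called. Of all 30142 genes, 20301 had a difference below 0 and 8.4% were called lower. Of the 19 activity-induced genes measured, 7 were lower and 0 higher, all 19 differences were below 0, and the median was -0.42. Arc fell most. Egr3, a zinc-finger transcription factor, read 9.28, 9.05 and 9.22 in CA1 and 7.78, 8.09 and 7.87 in CA2 (-1.27, adjusted p = 0.00112). Homer1, whose short form loosens the postsynaptic scaffold, read 8.60, 8.74 and 8.98 in CA1 and 7.88, 8.11 and 7.86 in CA2 (-0.82, adjusted p = 0.00489). Both genes left a clear gap between the groups. The orphan nuclear receptors Nr4a2 and Nr4a3 fell by 0.58 and 0.56 (adjusted p = 0.00524 and 0.00783). These 5 were called under every alternative. The median of the list was -0.60 in the cell body layers, and the interactions of Arc, Egr3, Homer1 and Nr4a2 were not called (adjusted p = 0.541, 0.0815, 0.378 and 0.896). That of Nr4a3 was called, at -0.41 (adjusted p = 0.0407), and over the list 1 was called above 0 and 3 below 0.

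Many activity-induced genes are known to be switched on through CREB, which binds the cAMP response element and its half-site TGACG. The 250 bases before the start of Homer1, Nr4a2 and Nr4a3 are shown because these genes fell and hold the half-site several times. The sequences are RefSeq promoters of build GRCm38.p6, on the gene's strand from 5′ to 3′, with each TGACG or its reverse complement CGTCA in capitals.
Homer1, chr13:93303507-93303756, plus strand: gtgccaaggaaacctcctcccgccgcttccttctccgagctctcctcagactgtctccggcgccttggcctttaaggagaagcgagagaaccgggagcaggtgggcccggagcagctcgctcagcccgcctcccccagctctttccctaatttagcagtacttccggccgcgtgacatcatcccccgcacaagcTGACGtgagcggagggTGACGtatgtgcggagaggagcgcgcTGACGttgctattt
Nr4a2, chr2:57124004-57124253, minus strand: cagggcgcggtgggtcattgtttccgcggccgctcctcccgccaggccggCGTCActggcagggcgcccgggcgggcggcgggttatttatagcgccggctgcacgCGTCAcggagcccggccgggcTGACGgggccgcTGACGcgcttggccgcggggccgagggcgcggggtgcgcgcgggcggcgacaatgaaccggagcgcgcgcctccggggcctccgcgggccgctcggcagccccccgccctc
Nr4a3, chr4:48045055-48045304, plus strand: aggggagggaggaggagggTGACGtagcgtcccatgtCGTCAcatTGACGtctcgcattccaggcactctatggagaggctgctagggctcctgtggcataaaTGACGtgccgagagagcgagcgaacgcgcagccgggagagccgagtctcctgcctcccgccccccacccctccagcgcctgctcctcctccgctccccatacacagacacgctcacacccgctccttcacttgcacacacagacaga
Homer1 has 3 half-sites in this window and Nr4a2 and Nr4a3 have 4 each. Promoters were found for 13 of the 19 measured activity-induced genes, and 12 of them (92.3%) hold the half-site on either strand, against 5347 of 27025 genes with a promoter in the table (19.8%). It was present in all 4 of the genes called lower that have an entry, but also in 8 of the other 9, so it does not separate the genes that fell from those that were not called. A match is a match of letters in this window and was not tested as a binding site.

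As deposited, receptors and channels moved in both directions, with falls the more frequent except among GABA receptors. The balance depended on scaling. After median centring, lower and higher calls were 7 and 6 for ionotropic glutamate receptors and 9 and 4 for potassium and HCN channels. They were 5 and 4 for sodium and calcium channels, 5 and 4 for calcium handling and 6 and 2 for neuromodulator receptors. Among 25 subunits and partners of ionotropic glutamate receptors, 8 were lower and 4 higher (32% and 16%, against 8.4% and 7.43% of all genes). Grin2a, the NMDA receptor subunit GluN2A, fell by 0.99 (adjusted p = 0.00162), Grik5, a kainate receptor subunit, by 0.96 (adjusted p = 0.000947), and Cnih2, an auxiliary subunit of AMPA receptors, by 0.55. Grin2a read 9.60, 9.41 and 9.56 in CA1 and 8.61, 8.59 and 8.39 in CA2. Those that rose included Grik1, another kainate subunit and one known from interneurons, from 6.66 ± 0.165 to 7.65 ± 0.07. Of these 12 calls, 9 held under every alternative.

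Among 41 potassium and HCN channel genes, 14 were lower and 1 higher (34.1% and 2.44%, against 8.4% and 7.43% of all genes). Their median was -0.30. Pex5l, the partner protein TRIP8b that places HCN channels in distal dendrites, read 9.72, 9.68 and 9.67 in CA1 and 8.51, 8.68 and 8.58 in CA2 (-1.10 ± 0.08, adjusted p = 0.00077). Kcnh3, a channel of the ether-a-go-go family, fell by 0.82, Kcnq3, a subunit of the M-type current, by 0.79, and Kcnab2, a beta subunit of Kv1 channels, by 0.63. The single rise was Kcnc2, a Kv3 channel of fast-spiking cells (0.44, adjusted p = 0.013), which was not called without CA2 replicate 1 (adjusted p = 0.0521). Of these 15 calls, 7 held under every alternative. Voltage-gated sodium and calcium channels had 7 lower and 4 higher of 21, with Cacna1i, a T-type calcium channel, lower by -0.99 and Cacna1e, the R-type channel, by -0.91. The 4 higher calls became 0 without CA1 replicate 1, CA2 replicate 1 or CA2 replicate 3, and 5 of the 11 calls held under every alternative. Calcium handling genes had 8 lower and 3 higher of 26. Slc8a2, a sodium-calcium exchanger, fell by 0.98, while the 3 that rose, Pcp4, Pvalb and Necab2, bind calcium or calmodulin. Of the 11 calls, 7 held under every alternative.

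Receptors for neuromodulators had 8 lower and 2 higher of 30 (26.7% and 6.67%, against 8.4% and 7.43% of all genes). Beside Sstr4, Htr1a, the serotonin 1A receptor, read 8.24, 8.16 and 8.07 in CA1 and 7.12, 6.86 and 6.66 in CA2 (-1.28 ± 0.123, adjusted p = 0.00161). Chrm1, the M1 muscarinic receptor, fell by 1.05 and Sstr3 by 0.96. Every CA2 array lay below every CA1 array in these 4 genes, as it did in 27.2% of all genes. Of the 10 calls, 6 held under every alternative. GABA receptor genes leaned the other way as deposited, with 5 higher and 2 lower of 14, but with 3 and 3 after subtracting the median of genes of like level, and 2 of the 7 calls held under every alternative. Gabrb2, the beta-2 subunit, rose from 9.38 ± 0.262 to 10.20 ± 0.154 (0.82, adjusted p = 0.00896) and Gabra2, the alpha-2 subunit, from 10.22 ± 0.111 to 10.84 ± 0.046. Perineuronal net genes had 0 called of 16 by limma, and Acan, the core proteoglycan aggrecan, lay at 6.43 ± 0.069 in CA1 dendrites and 6.41 ± 0.01 in CA2 dendrites, against a difference of 1.65 between the cell body layers (interaction -1.67).

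**Figure D4:**
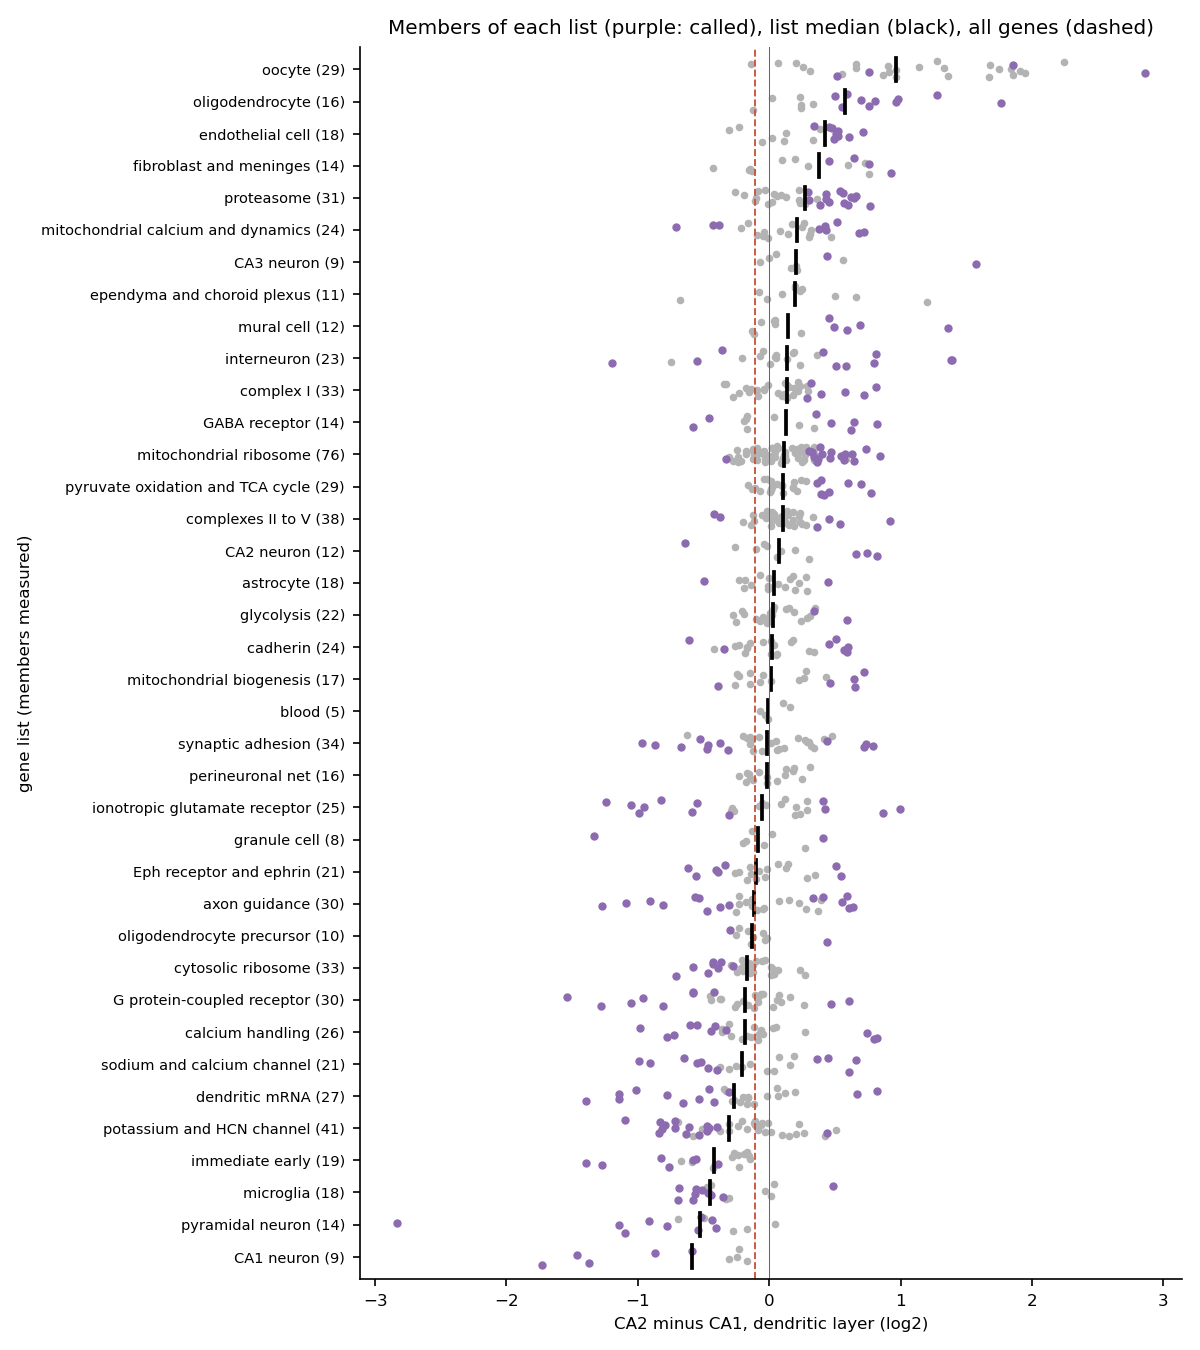
Differences between CA2 and CA1 in the dendritic layer (horizontal, log2) of the measured members of 38 gene lists, with called members in purple, other members in grey, the list median as a black bar and the median of all genes as a dashed line at -0.11. Medians run from -0.59 for CA1 markers and -0.53 for pyramidal neuron genes to 0.57 for oligodendrocyte markers and 0.97 for oocyte transcripts, and most lists have members on both sides of 0.

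Guidance and adhesion molecules were divided, and the balance within these lists depended on scaling. Axon guidance genes had 9 lower and 6 higher of 30 as deposited, and 6 lower and 9 higher after median centring. Their shares as deposited were 30% lower and 20% higher, against 8.4% and 7.43% of all genes. Plxna1, a semaphorin receptor, read 9.70, 9.59 and 9.63 in CA1 and 8.39, 8.44 and 8.27 in CA2 (-1.27 ± 0.083, adjusted p = 0.000676), Plxnd1 fell by 1.09 and Unc5a, a netrin receptor, by 0.91. The ligand Sema6d rose by 0.64. Synaptic adhesion genes had 8 lower and 4 higher of 34, and 5 lower and 9 higher after median centring. Tenm2, a teneurin, fell by 0.97 and Flrt2, a partner of latrophilins, rose by 0.79. These 6 genes kept their calls under every alternative. Cadherins had 5 higher and 2 lower of 24, and Eph receptors and ephrins 2 higher and 5 lower of 21, or 3 and 2 after median centring. Calls that held under every alternative were 10 of 15 for axon guidance, 7 of 12 for synaptic adhesion, 3 of 7 for cadherins and 2 of 7 for Eph receptors and ephrins.

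Glial and vascular markers differed between the pieces. Oligodendrocyte markers were higher in CA2 in 10 of 16 (62.5%, against 7.43% of all genes) and lower in 0, with a median of 0.57. Their mean level was 8.31 to 8.60 on the CA1 arrays and 8.94 to 9.11 on the CA2 arrays. Ermn read 7.46, 7.65 and 8.29 in CA1 and 9.70, 9.41 and 9.58 in CA2 (1.76 ± 0.199, adjusted p = 0.00231). Tspan2, a tetraspanin of myelinating cells, rose by 1.27, Aspa, which breaks down N-acetylaspartate, by 0.98, and Mag, an adhesion protein of the myelin surface, by 0.55. Mbp, the major myelin protein, did not follow them, at 9.67 ± 0.146 and 9.55 ± 0.015 (-0.12, adjusted p = 0.366). The median of the list was 0.59 in the cell body layers, and 0 of the 16 had a called interaction (14.6% of all genes had one). Of the 10 calls, 8 held under every alternative. Precursors of oligodendrocytes had 1 higher and 1 lower of 10.

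Endothelial markers were higher in 10 of 18 (55.6%, against 7.43% of all genes) and lower in 0. Their mean levels were 8.57 to 8.71 on the CA1 arrays and 8.91 to 8.97 on the CA2 arrays. Abcb1a, the P-glycoprotein pump of the blood-brain barrier, rose by 0.71, Kdr, the main receptor for vascular endothelial growth factor, by 0.61 and Flt1, another receptor for it, by 0.53. After subtracting the median of genes of like level, 8 were higher and 1 lower, and 5 of the 10 calls held under every alternative. Mural cell markers had 5 higher and 0 lower of 12, of which 2 held throughout, among them Acta2, which read 8.72, 7.87 and 8.52 in CA1 and 9.80, 9.84 and 9.56 in CA2. Genes of fibroblasts and meninges had 4 higher and 0 lower of 14, but 0 of these 4 calls held under every alternative. Genes of ependyma and choroid plexus (11 measured) and of blood (5) had 0 called by limma.

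Microglia went in the opposite direction. Of 18 markers, 9 were lower and 1 higher in CA2 (50% and 5.56%, against 8.4% and 7.43% of all genes). The median was -0.45, and the mean level was 9.02 to 9.16 on the CA1 arrays and 8.71 to 8.75 on the CA2 arrays. P2ry12, the purine receptor of resting microglia, read 9.19, 9.17 and 9.42 in CA1 and 8.61, 8.65 and 8.43 in CA2 (-0.70 ± 0.103, adjusted p = 0.00509). Cx3cr1, the fractalkine receptor, fell by 0.58, Fcrls by 0.56 and Trem2, a receptor of phagocytosis, by 0.45, whereas Ctss, the protease cathepsin S, rose by 0.49. Of the 10 calls, 6 held throughout. In the cell body layers the median was 0.05, and 11 of the 18 had a called interaction below 0, against 8.91% of all genes. The mean level of the markers in cell bodies was 6.86 in CA1 and 6.92 in CA2, against 9.09 and 8.735 in dendrites. At such lower levels a regional difference may not show. Astrocyte markers had 1 higher and 1 lower of 18, with a median of 0.04. Gfap, the intermediate filament of astrocytes, lay at 10.94 ± 0.096 and 11.23 ± 0.232 (0.29, adjusted p = 0.137), and S100b, a calcium-binding protein, fell by 0.49. The part of these glial and vascular shares in other differences was not tested.

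Interneuron markers separated into those that rose and those that fell. Of 23, 7 were higher and 3 lower (30.4% and 13%, against 7.43% and 8.4% of all genes), and 6 of these 10 calls held under every alternative. Sst, the peptide somatostatin, read 10.73, 10.68 and 10.94 in CA1 and 9.98, 9.14 and 9.63 in CA2 (-1.20 ± 0.194, adjusted p = 0.00688), and Cck, cholecystokinin, fell by 0.55. Beside Reln and Ndnf, Pvalb, the calcium buffer parvalbumin of fast-spiking cells, rose from 8.45 ± 0.197 to 9.25 ± 0.116 (0.80, adjusted p = 0.00494) and Erbb4, a neuregulin receptor, from 8.83 ± 0.202 to 9.64 ± 0.123. Gad1, a GABA-synthesizing enzyme, rose by 0.59 (adjusted p = 0.0147) and was not called without CA2 replicate 3 (0.54, adjusted p = 0.0575). The interaction was called for Sst (-1.33), Reln (0.95), Ndnf (1.16), Erbb4 (0.48), Cck (-0.53) and Gad1 (0.52), but not for Pvalb (0.43, adjusted p = 0.106). Ndnf lay at only 5.69 in CA1 and 5.91 in CA2 cell bodies, where a regional difference may not show.

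Genes of mitochondrial energy supply were called higher more often than lower in CA2 dendrites, by modest amounts. The rises were 6 of 33 (18.2%) for subunits of complex I, 4 of 38 (10.5%) for complexes II to V, 16 of 76 (21.1%) for the mitochondrial ribosome and 8 of 29 (27.6%) for pyruvate oxidation and the TCA cycle, against 7.43% of all genes. They were 6 of 24 (25%) for calcium uptake, fusion, fission and transport of mitochondria and 4 of 17 (23.5%) for regulators of their biogenesis. The falls, in the same order of lists, were 0, 2, 1, 0, 3 and 1. List medians lay between 0.01 and 0.21. After subtracting the median of genes of like level, higher and lower calls were 4 and 1 for complex I, 3 and 3 for complexes II to V, 11 and 2 for the mitochondrial ribosome and 4 and 0 for the TCA cycle. The counts also depended on single arrays. Without CA2 replicate 1, 2 or 3, the mitochondrial ribosome had 8, 8 and 9 higher calls, the TCA cycle 4, 5 and 4, and complex I 3 each time. Calls that held under every alternative were 3 of 6 for complex I, 2 of 6 for complexes II to V, 7 of 17 for the mitochondrial ribosome, 4 of 8 for the TCA cycle, 4 of 9 for calcium uptake and dynamics and 4 of 5 for biogenesis.

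Ndufs1, the largest subunit of complex I, read 8.73, 8.47 and 8.93 in CA1 and 9.56, 9.48 and 9.52 in CA2 (0.81 ± 0.119, adjusted p = 0.005), and Ndufa9 rose by 0.72. Cycs, cytochrome c, read 9.92, 10.61 and 10.44 in CA1 and 11.29, 11.20 and 11.24 in CA2 (0.92 ± 0.163, adjusted p = 0.00978). The CA2 arrays were higher and closer together in both. Mrpl42 and Mrpl11, proteins of the mitochondrial ribosome, rose by 0.84 and 0.65, Dld, a subunit shared by the pyruvate and 2-oxoglutarate dehydrogenase complexes, by 0.78, and Mfn1, a fusion GTPase, by 0.72. The regulators Ppargc1a, a coactivator of biogenesis, and Tfam, which packages mitochondrial DNA, rose by 0.65 each. Trak1, an adaptor that couples mitochondria to motors, fell by 0.71. Glycolysis had 2 higher and 0 lower of 22.

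Protein turnover genes also differed. The proteasome had 14 higher (45.2%, against 7.43% of all genes) and 0 lower of 31, with a median of 0.27. After subtracting the median of genes of like level, the proteasome had 8 and 1. Its higher calls were 6 without CA2 replicate 1 or 2 and 8 without CA1 replicate 1, without CA2 replicate 3 or with the replicate block, and 6 of the 14 held under every alternative. Psma1, a core subunit, rose from 8.19 ± 0.191 to 8.95 ± 0.036 (0.76, adjusted p = 0.00429), and Psmc5, an ATPase of the regulatory particle, from 11.28 ± 0.147 to 11.90 ± 0.026. Proteins of the cytosolic ribosome, of which only 33 of the 77 listed were measured, had 8 lower and 0 higher, but 4 lower and 2 higher after median centring. Without any 1 of the CA2 arrays 4 were lower, and 3 of the 8 calls held under every alternative. Rpsa fell from 10.61 ± 0.025 to 9.90 ± 0.087 and Rpl7a by 0.58. For the proteasome the cell body median was 0.16, and 2 members had a called interaction.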

How the data were processed

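The authors deposited log2 expression values made with RMA, per the submitters' processing notes. The software version is not given in the sources used here, nor is the set of arrays normalized together. Of 72688 features, 30604 had 1 gene symbol in the platform annotation, 2146 had several and 39938 were unnamed here. The brightest feature of a gene over 12 arrays was kept, which left 30142 genes. The 6 dendritic arrays entered a two-sided limma fit (lmFit and eBayes, version 3.58.1, R 4.3.3) and the interaction on 12 arrays with 4 group means. The fits were tested on simulated data. Arrays give no read depth, and their number limits the precision. No label says that a replicate number is a mouse, so p-values measure only the spread between these arrays. The members, the 38 gene lists and the tests were chosen with earlier results of these data known. Named genes were the 15 largest rises and falls among called genes with groups that do not overlap and a higher mean above the median (predicted genes, small RNAs, chemosensory and immune receptors and oocyte transcripts left out), up to 4 members of each list by p, 15 genes always given and the 5 largest interactions each way, of which some are given. Cplx1, Kcnc2, Ctss, Sst, Cck, Nr4a3 and Acan were named after their values were seen. Alternatives changed the samples, block, scaling, filter, features, weights, variance prior and single arrays.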

Additional observations from a re-analysis of the deposited data

Results flagged for a closer look

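Of the 123 genes named, 74 had a regional difference that differed between the layers by limma's interaction test, 43 below 0 and 31 above 0. Over all genes the share was 14.6%. Some genes were named for a large interaction and others for a large dendritic difference, which is part of it. A high share was thus built in by the choice of genes. Each value here is the dendritic difference minus the cell body difference, in log2.

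CA2 and CA3 markers all had values below 0 where called. The value was -2.97 for Pcp4, -2.84 for Sostdc1, -2.53 for Amigo2, -2.42 for Map3k15, -1.76 for Necab2, -1.11 for Rgs14, -1.01 for Nr3c2 and -3.43 for Cpne4. Mctp1 had -2.81, Syce2 -1.35 and Vit -1.27, and for the perineuronal net protein Acan it was -1.67. CA1 markers lay above 0, at 2.71 for Man1a, 2.05 for Ndst4, 0.99 for Wfs1 and 0.57 for Fibcd1, and so did the adhesion receptor Adgrl2 at 2.42. C1ql3 had 2.59, Calb1 2.51, Dipk2a 2.31, Lct 0.88 and Pcdh19 0.32, and Fstl5 had -2.79.

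Among the largest falls the value was below 0, so that the dendritic layers differed more than the cell bodies, for Thbs4 (-1.43), Rasgrp1 (-0.96), Ajm1 (-0.91), Phyhip (-0.82), Git1 (-0.82), Adra2c (-0.74), Sptb (-0.65) and Itpka (-0.55). Neuronal and dendritic genes added Psd (-0.92), Ptk2b (-0.84), Camkv (-0.67), Neurod6 (-0.61), Dgkz (-0.48) and Nr4a3 (-0.41), whereas Map2 had 0.32. Cplx1 had -0.52, with a rise of 0.67 in dendrites and a larger difference of 1.19 in cell bodies. Among the largest rises the value was 1.34 for Cdh19, 1.31 for Pdgfd, 1.30 for Acta2, 1.13 for Idi1 and 0.82 for Brix1. The largest falls and rises were picked by their dendritic difference, which is part of this value. That choice alone tends to move the value below 0 for falls and above 0 for rises. Some of these genes were low in cell bodies, where a regional difference may not show. In CA1 and CA2 cell bodies Thbs4 lay at 6.59 and 6.56 and Cdh19 at 4.13 and 4.75. Pdgfd lay there at 5.28 and 5.56 and Acta2 at 6.47 and 6.53.

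Channels, receptors and exchangers went both ways. The value was below 0 for Slc8a2 (-0.93), Sstr3 (-0.75), Grik5 (-0.69), Kcnab2 (-0.57), Chrm1 (-0.51), Cacna1e (-0.49), Cnih2 (-0.46) and Kcnh3 (-0.28). It was above 0 for Gabrb2 (1.05), Htr1a (0.94), Kcnc2 (0.79), Pex5l (0.78), Grik1 (0.72) and Gabra2 (0.61). Guidance and adhesion genes had -0.97 for Plxna1, 0.98 for Flrt2, 0.48 for Sema6d and 0.46 for Tenm2.

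Interneuron genes had -1.33 for Sst, -0.53 for Cck, 1.16 for Ndnf, 0.95 for Reln, 0.52 for Gad1 and 0.48 for Erbb4. Ndnf was low in cell bodies, at 5.69 in CA1 and 5.91 in CA2. Of glial and vascular genes, S100b had -1.52, Fcrls -0.54, Cx3cr1 -0.42, Trem2 -0.41 and Abcb1a 0.33. The mitochondrial ribosomal gene Mrpl11 had 0.64.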

How the results depend on the processing

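Region and run cannot be told apart, the dendritic groups have 3 arrays each, and CA2 replicates 2 and 3 carry oocyte transcripts. With all 12 arrays in the fit, 3703 genes were called higher and 6435 lower, and with a replicate block added to it, an alternative chosen after seeing the data, 3487 and 5618. With the replicate block in the 6-array fit, 1486 were called lower. No label says that a replicate number is a mouse, so the numbers were not taken to pair the samples. Same-numbered arrays of the regions had deviations that correlated at -0.077 to -0.0116, and other-numbered arrays at -0.00456 to 0.0717. With 3 arrays per group these values cannot decide whether the samples are paired. Genes called lower were 1637 after quantile normalization, 1087 after median centring, 1678 after cyclic loess and 1607 after the like-level offset. Leaving out 1 array gave 1121 to 2318 higher, 990 to 2829 lower and 2621 to 6991 with an interaction, and 1303 had one without every array with oocyte transcripts. The median of dentate granule cell markers, -0.09 as deposited, was 0.02, 0.022, 0.033 and 0.043 after quantile normalization, median centring, loess and the like-level offset, and that of Eph receptors and ephrins, -0.10, was 0.008 after median centring. The cause of these shifts was not tested. Over every feature of the table, named or not, 1525 were called higher and 1806 lower. Single genes picked by the naming rules, some not given here, were also followed under these settings. In 3084 cases a gene stayed called or stayed not called, in 53 it became called and in 154 it lost its call. In 0 cases did a gene called in either fit change direction. Genes called in neither fit were counted among the 3084 even where their direction changed. Signal over background limits genes near the level of the background probes, 4.65 in CA1 and 4.56 in CA2.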

Other observations

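Some genes separated the regions in cell bodies and hardly in dendrites. Calb1, the calcium buffer calbindin, lay at 8.28 in CA1 dendrites and 8.20 in CA2 dendrites (-0.08, adjusted p = 0.752 by limma), against a difference of -2.59 between the cell body layers. C1ql3, a secreted synaptic organizer, differed by -0.63 in dendrites (adjusted p = 0.0729) and -3.21 in cell bodies, and Dipk2a by 0.19 (adjusted p = 0.295) and -2.12. Fstl5, a follistatin-like protein, was called higher in CA2 dendrites by 0.50 (adjusted p = 0.0285) and differed by 3.29 in cell bodies. Its dendritic call was lost under the replicate block and without CA1 replicate 1 or 2 or any CA2 array, with differences of 0.40 to 0.57 and adjusted p of 0.0506 to 0.0889. With CA2 replicate 1 as the only CA2 array the difference was 0.66 (adjusted p = 0.0568).

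Markers of dentate granule cells had 1 higher and 1 lower of 8. Lct, the enzyme lactase, read 7.81, 7.31 and 7.11 in CA1 and 6.10, 6.00 and 6.12 in CA2 (-1.34, adjusted p = 0.00298), so the CA2 arrays lay together and below. Dock10 rose by 0.41 (adjusted p = 0.00999). Among cadherins, Cdh8 rose by 0.59 and Pcdh19 fell by 0.61.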
